A study of Mus musculus with 2 samples.

Results

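This account concerns 2826 regions of open chromatin at gene ends that were called both in resting mouse macrophages and in macrophages treated with R848. They are labelled stable because their strength after R848 was below 2 times that in untreated cells, with no lower limit set. The cells were wild-type bone marrow-derived macrophages, which are primary macrophages grown from marrow precursors in 20 ng/ml M-CSF, the growth factor that drives macrophage differentiation. ATAC-seq, which uses a Tn5 transposase to cut and tag accessible DNA, was run on 1 library of untreated cells and on 1 library of cells given R848 for 2 h at 100 ng/ml. R848 is a small-molecule agonist of the endosomal Toll-like receptor TLR7. No allele, transgene or further agent distinguished the groups, and the labels used here state no sex, age or number of mice. With 1 library a group there was no replicate, so no difference between the groups could be tested, and every interval below covers counting error only.

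The regions were picked from the authors' 2 peak lists by their values. A region had to be an R848 peak on chromosomes 1 to 19 with a −log10 q of at least 5, called strong here. It had to overlap an untreated peak and to lie within 1 kb of either end of a protein-coding RefSeq gene. Its R848 fold enrichment had to be below 2 times that of the untreated peak. Fold enrichment is the tag pileup at the summit plus 1 over the background plus 1, within the same library. Of 37725 R848 peaks, 36721 were autosomal, 6147 of these were strong and 3687 of these lay at a gene end. The rule took 2826 of those 3687, which is 76.6% and is the base rate for every count of shared strong peaks below. A further 511 strong gene-end peaks had no untreated counterpart, and 350 had one but a fold ratio of 2 or more. These 511 and 350 peaks serve as comparisons, called the R848-only and the ratio-above-2 peaks.

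As background, most promoters of broadly expressed mammalian genes lie in CpG islands, stretches rich in G, C and the CpG dinucleotide that mostly stay unmethylated. Their DNA just upstream of the transcription start is kept short of nucleosomes and is bound by widely expressed factors such as ETS proteins, SP/KLF proteins, NRF1, YY1 and NF-Y, and Tn5 cuts there readily. Inducible genes differ in this respect. Many early response genes have CpG-island promoters that are open before stimulation, whereas many cytokine and interferon-response genes have CpG-poor promoters.

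Sequences of 8 promoters at these peaks are printed below. CpG content took no part in choosing them, and the Eif3f bases, rich in A and T, also hold TATAAA. Peak sequences themselves were not used here. Promoters came from RefSeq (GRCm38.p6, whose primary chromosomes share coordinates with the mm10 build of the files), as windows from 250 bases before to 50 bases after a gene start. For each of 8 motifs known from CpG-island promoters, promoters with the motif in the 120 bases just upstream of the gene start were considered. The one under the strongest shared peak was taken, and those 120 bases are printed 5′ to 3′ on the gene's strand. Capitals mark the motif matches. A match means only that the letters occur.
Rpl15, ETS: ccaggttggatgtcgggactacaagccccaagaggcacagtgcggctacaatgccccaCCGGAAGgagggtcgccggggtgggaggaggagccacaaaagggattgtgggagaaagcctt
Sec23a, SP/KLF GC box: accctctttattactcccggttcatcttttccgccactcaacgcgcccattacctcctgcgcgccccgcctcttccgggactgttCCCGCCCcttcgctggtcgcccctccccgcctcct
Mrpl32, NRF1: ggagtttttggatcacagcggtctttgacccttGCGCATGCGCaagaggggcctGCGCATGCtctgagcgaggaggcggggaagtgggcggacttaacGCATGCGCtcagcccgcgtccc
Cdk5rap2, YY1: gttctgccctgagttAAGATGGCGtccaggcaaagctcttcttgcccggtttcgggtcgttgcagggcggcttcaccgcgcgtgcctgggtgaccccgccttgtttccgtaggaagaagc
Dnajb9, NF-Y: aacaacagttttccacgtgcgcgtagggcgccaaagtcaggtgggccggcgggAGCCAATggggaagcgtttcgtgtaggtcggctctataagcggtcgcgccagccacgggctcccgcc
Mterf1a, CREB/ATF: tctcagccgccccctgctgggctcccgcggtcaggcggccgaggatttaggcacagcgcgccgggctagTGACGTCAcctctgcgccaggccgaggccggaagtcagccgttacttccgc
Eif3f, E-box: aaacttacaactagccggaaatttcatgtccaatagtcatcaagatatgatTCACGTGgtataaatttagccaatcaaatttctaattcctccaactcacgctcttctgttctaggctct
Prcc, Ronin/ZNF143: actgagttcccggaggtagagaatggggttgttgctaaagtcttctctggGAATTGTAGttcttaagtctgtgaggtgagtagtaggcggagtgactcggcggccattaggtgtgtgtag

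Rpl15 encodes a protein of the large ribosomal subunit, and its printed bases lie on the minus strand at chr14:18270987-18271106. The ETS letters CCGGAAG began 62 bases before the start, inside a peak at chr14:18270892-18271318 with a fold of 15.2 in R848 and 8.40 in untreated cells. Sec23a encodes a coat protein of vesicles leaving the endoplasmic reticulum, at chr12:59012018-59012137 on the minus strand. Its fold was 15.0 in R848 and 7.72 in untreated cells, a ratio of 1.94 close to the limit of the rule. Mrpl32, a mitochondrial ribosomal protein gene, held 4 NRF1 matches counted over both strands (GCATGCGC, chr13:14613038-14613157, minus strand). Its peak, shared with the neighbouring proteasome gene Psma2, had folds of 11.8 and 8.82 in the same order. NRF1 is best known as a regulator of nuclear genes for mitochondrial proteins.

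Cdk5rap2, which encodes a centrosomal protein, carried the YY1 letters AAGATGGCG 105 bases before the start (chr4:70410436-70410555, minus strand), with folds of 11.5 in R848 and 6.36 in untreated cells. Dnajb9, which encodes an endoplasmic reticulum chaperone, carried the CCAAT box AGCCAAT 67 bases before the start (chr12:44210069-44210188, minus strand). Its folds were 15.8 and 10.8. Mterf1a, a mitochondrial transcription termination factor with a close paralog, carried TGACGTCA 51 bases before the start (chr5:3893934-3894053, minus strand), with folds of 10.6 and 6.60. Reads from near-identical copies of a gene can be misplaced, so the Mterf1a value is uncertain. Eif3f, a subunit of translation initiation factor eIF3, carried TCACGTG 69 bases before the start (chr7:108934295-108934414, plus strand). Its folds were 13.8 and 8.19. Prcc carried CTACAATTC on the opposite strand 70 bases before the start (chr3:87885563-87885682, minus strand), with folds of 11.4 and 7.77. In these 8 examples the R848 fold was the higher, and all 8 motifs lay within the printed bases because that was how the examples were found.

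The authors' lists give no read totals. The summit pileup and its background were therefore solved from each peak's fold and p, which worked for all 2826 regions in both lists. The genome-wide background was 1.36 tags in R848 and 0.968 in untreated cells (ratio 1.40). That ratio stands for depth only if reads were extended alike in both libraries. Shared strong peaks rested on a median of 19 tags at the summit in R848 (quartiles 15 and 27) and 11 in untreated cells (quartiles 8 and 14). Precision for a single region is thus low. The lists were not equally long, with 77060 untreated peaks against 37725 after R848. Among 17 macrophage genes, 3 had a shared strong peak at an end, Cebpa and Lyz2 among them, and 9 had a weaker R848 peak there. Irf8 had an untreated peak alone, and Cd14, Fcgr1, Cx3cr1 and Mertk had no peak in either list at either end.

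The label of a stable strength held in part. The median fold was 7.24 in R848 (quartiles 6.06 and 9.09) and 5.59 in untreated cells (quartiles 4.57 and 7.11). The median ratio was 1.37 (quartiles 1.14 and 1.60, lowest 0.312), beside 1.08 over all 11214 autosomal R848 peaks that overlapped an untreated peak. The ratio was 1 or more in 2448 regions (86.6%) and 1.5 or more in 979 (34.6%). It was under 1 in 378 (13.4%) and under 0.5 in 2. These values chose the regions, and strength was asked of the R848 list alone, so they describe the set and test nothing. The rule had no lower limit on the ratio. The 1 added to tags and to background weighs more in untreated cells, whose genome-wide background was 0.968 tags against 1.36. The part of this addition in the ratios was not tested.

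The median ratio depended on which list had to be strong. With −log10 q of at least 5 asked of the untreated list alone, an alternative chosen after seeing the data, 1459 regions qualified and their median ratio was 1.16. With that strength asked of both lists, 1357 regions qualified (48.0% of the shared strong peaks) and the median ratio was 1.20. In untreated cells 58 of the shared strong peaks (2.05%) had a q above 0.05. Many of the regions were therefore strong in R848 and modest in untreated cells, within a 2-fold range.

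**Figure D1:**
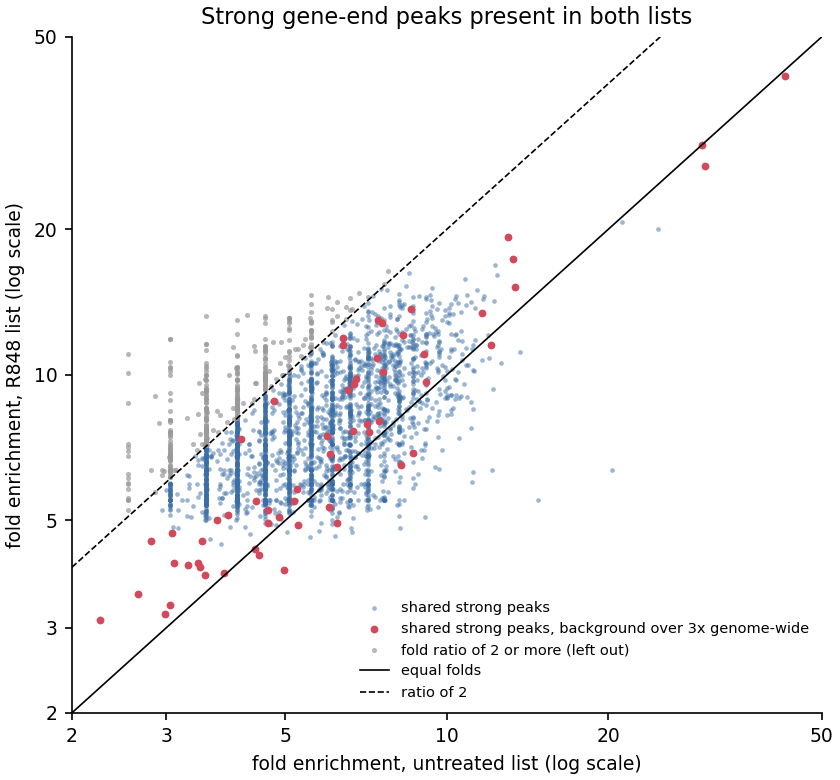
Fold enrichment in untreated cells (x axis, log scale) against R848 (y axis, log scale) for each strong gene-end peak found in both lists, with 1 point a peak, lines at equal folds and at a ratio of 2, and red points for a background over 3 times the genome-wide level. Most of the 2826 shared strong peaks lie between the lines, 378 lie below the line of equal folds, and the vertical stripes are whole numbers of untreated tags.

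Tag counts gave a second measure of the difference. The tag ratio, scaled by the background ratio of 1.40, had a median of 1.42 in the shared strong peaks and 0.950 over all shared autosomal peaks. Its 95% interval included 1 in 2597 regions (91.9%), as low counts and a limited ratio make likely, while the ratio itself was under 1 in 416 (14.7%). It lay above 1 in 211 (7.47%), against 4.51% of all 11203 shared autosomal peaks with solved tags, and below 1 in 18 (0.637%), against 7.09%. Because the rule removed high ratios and asked strength of R848, these shares are printed beside each other without being read as a result. The scaled tag ratio was 2 or more in 270 regions (9.55%), so a limit set on tags in place of fold would have drawn a slightly different set.

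The strongest regions were of several kinds. The largest fold was near the 3′ end of Wls, which encodes the carrier of secreted Wnt proteins (chr3:159939317-159939779), with 817 tags in R848 and 1412 in untreated cells. Its fold was 41.4 and 42.6, over a local background of 18.7 and 32.2 tags. Lars2, the mitochondrial leucyl-tRNA synthetase gene, followed near its 3′ end with 200 and 182 tags and folds of 29.8 and 29.9 (chr9:123461798-123462273). Sspn, a sarcospan gene of the dystrophin complex, had folds of 20.7 and 21.2 with the summit 1052 bp downstream of its start. The predicted gene Gm32584 had a region at each end, with folds of 27.0 and 30.2 near its end and 20.0 and 24.7 near its start. In these 5 regions the fold ratio was 0.809 to 0.997, and the scaled tag ratio was 0.412 at Wls (95% interval 0.378 to 0.450), 0.783 at Lars2 (0.637 to 0.962), 0.667 at Sspn (0.460 to 0.967) and 0.545 and 0.519 at Gm32584. By tags all 5 intervals lay below 1, so these regions were lower after R848 by that measure. Their summits were 0 to 33 bp apart and none was at the upstream side of a gene start. The local background was over 3 times the genome-wide level at Wls, at Lars2 and at the Gm32584 region near its end, and its part in these folds was not tested.

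The next 4 regions by fold lay at gene starts. Pja2, an E3 ubiquitin ligase gene, had 119 tags in R848 and 33 in untreated cells, and its fold was 19.2 and 13.0 (chr17:64331663-64332464). Its scaled tag ratio was 2.57 (95% interval 1.73 to 3.90). Opn3, an opsin gene, had folds of 17.3 and 13.3, and Cdv3 had 16.9 and 12.3. Pwwp2a, whose protein binds nucleosomes with the variant histone H2A.Z, had folds of 16.2 and 8.48, a ratio of 1.91. In these 4 regions the R848 summit was 85 to 214 bp upstream of the gene start. The R848 background was 5.24 tags at Pja2 and 5.06 at Opn3, over 3 times the genome-wide 1.36. Its part in these folds was not tested.

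At the lower side of the ratio stood regions that were weaker after R848. Bod1, which encodes a regulator of chromosome attachment at mitosis, had 14 tags in R848 and 69 in untreated cells (chr11:31671121-31671385). Its fold was 6.36 and 20.3, a ratio of 0.312, and the scaled tag ratio was 0.145 (95% interval 0.0751 to 0.259). Helq, a DNA helicase gene, had folds of 5.51 and 14.8 near its 3′ end, a ratio of 0.373. Hdac1, a histone deacetylase gene, had folds of 6.36 and 12.1, with 14 and 24 tags and a scaled tag ratio of 0.416 (0.199 to 0.836). Gm4454 had folds of 6.02 and 11.2, and Klf11, a Krüppel-like repressor gene, had 5.08 and 9.09. The tag interval of Klf11 ran from 0.303 to 1.13 and so included 1, while those of the other 4 lay below 1.

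Regions nearest a ratio of 1 were Ppp2r5c (5.77 in both lists) and Sh3gl1 (7.63 in both), genes of a phosphatase subunit and of an endocytic protein. Tardbp, the gene of the RNA-binding protein TDP-43, had 5.51 and 5.50, Clk4 had 6.60 and 6.60, and Ltv1 had 5.83 and 5.83. At the upper limit the values ran on without a gap. Just inside were Tfg (14.6 and 7.28, ratio 1.9996), Rnmt (8.12 and 4.06), Lrrcc1 (6.78 and 3.40), Mrps28 (7.09 and 3.56) and Gnpda1 (7.09 and 3.56). Just outside were Slc6a6 (7.14 and 3.57), Ppa2 (5.71 and 2.86), Thg1l (8.13 and 4.06), the proteasome gene Psma4 (8.13 and 4.06) and Cks2 (11.2 and 5.59). Their untreated values came from 5 to 14 tags, so 1 untreated tag more or fewer would carry a region across the limit.

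Peaks with a higher R848 −log10 q more often met the rule. That value and the overlap were both part of the rule, so the shares by strength describe the set. Of 1773 strong gene-end peaks with an R848 −log10 q of 5 to 10, 72.8% met the rule and 23.6% had no untreated counterpart. The same shares were 79.3% and 6.81% of 1306 peaks from 10 to 20, and 81.3% and 0.735% of 544 peaks from 20 to 40. Of the 64 peaks at 40 or more, 89.1% met the rule and none was R848-only. Away from gene ends 1648 of 2460 strong autosomal peaks (67.0%, 95% interval 65.1 to 68.8) overlapped an untreated peak, against 3176 of 3687 at gene ends (86.1%, 85.0 to 87.2). Peaks at and away from gene ends were not matched for strength.

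Position within the gene was not fixed by the rule beyond nearness to either end. Of the 2826 regions, 2372 (83.9%) lay within 1 kb of a gene start and 39 (1.38%) only near a 3′ end. The other 415 (14.7%) could not be placed because the promoter table gave no strand for their genes, among them the 81 regions on chromosome 18. The share at a start was 77.7% of the R848-only peaks, 83.7% of the ratio-above-2 peaks and 76.8% of all 8109 autosomal R848 peaks at gene ends, strong or not. Among the 39 regions only at 3′ ends the median fold was 6.36 in R848 and 5.08 in untreated cells, a median ratio of 1.21.

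Summits sat just upstream of the start in both libraries. The median summit was 73 bp upstream in R848 and 73 bp upstream in untreated cells, over the 2334 regions within 1 kb of a start in the promoter table. In R848 the summit was upstream in 1758 of these (75.3%) and 1 to 150 bp upstream in 1207 (51.7%). The summit of each region also held its place between libraries. The R848 and untreated summits were a median of 55 bp apart (quartiles 25 and 104), within 50 bp in 46.7% and within 100 bp in 74.2% (95% interval 72.5 to 75.7). Over all shared autosomal peaks the median was 74 bp, and 61.3% were within 100 bp.

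**Figure D2:**
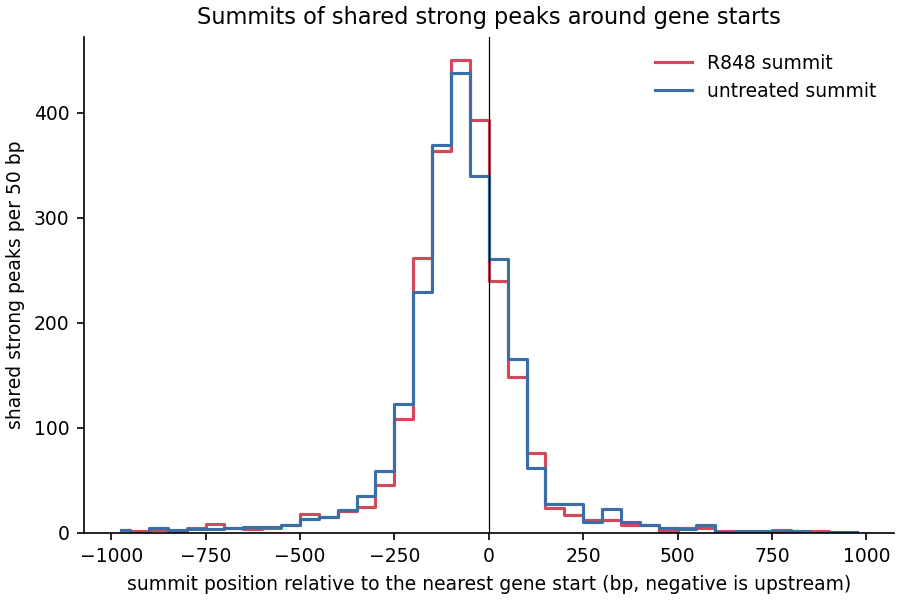
Number of shared strong peaks per 50 bp (y axis) by the position of the summit relative to the nearest gene start in bp (x axis, negative is upstream), for R848 (red) and untreated (blue) summits of the same regions. Both curves peak 50 to 100 bp upstream of the start, and their medians are 73 bp upstream in either library.

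The median region was wider than the median autosomal peak, and wider in R848 than in untreated cells. The median width was 586 bp in R848 and 424 bp in untreated cells, against 271 and 256 bp over all autosomal peaks of the same lists. It was 458 bp in the R848-only peaks and 539 bp in the ratio-above-2 peaks. The R848 interval was the wider in 2258 of 2826 regions (79.9%). The genome-wide background was 1.40 times higher in R848, and its part in the widths was not tested. Strength was asked of the regions in the R848 list alone, while all autosomal peaks include weak ones. The part of this choice in the widths was not tested either. In 73 regions (2.58%) the R848 interval covered more than 1 untreated peak, and no untreated peak was counted under more than 1 region.

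The regions were also split by R848 fold into 4 groups of nearly equal size. In the lowest group (fold 3.11 to 6.06) the median width was 521 bp, the summits were 65 bp apart and 68.7% were within 100 bp. In the highest group (fold 9.12 to 41.4) the values were 651 bp, 42 bp and 84.0%. Stronger regions were thus wider and had closer summits, and since fold took part in choosing the regions these values describe the set.

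Some regions lay close to more than 1 gene. Ends of 2 or more protein-coding genes lay within 1 kb of 603 regions (21.3%), and 262 (9.27%) lay between 2 starts that point apart, known as divergent promoters. Divergent regions had a median fold of 7.74 in R848 and 6.10 in untreated cells, against 7.21 and 5.59 at the other 2110 starts, with median ratios of 1.36 and 1.37. The rule limited the ratio alike at both kinds of start, so these medians are a description. The regions covered 3396 of 20665 autosomal protein-coding genes, which is 16.4% and the base rate for the gene lists below. Of these, 3354 genes had 1 region and 42 had 2.

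Genes with 2 regions included Ctdsp1, which encodes a small phosphatase of RNA polymerase II, with folds of 4.82 in R848 and 6.64 in untreated cells at its start and 9.32 and 4.74 at its end. The fold ratio was thus below 1 at the start and above 1 at the end, and the tag intervals of both regions included 1 (0.343 to 1.71 and 0.979 to 4.75). Slc25a12, a mitochondrial aspartate-glutamate carrier gene, had folds of 5.93 and 4.57 at its start and 5.93 and 5.08 at its end. Pask and Ppp1r7 are neighbours that shared both of their regions, with folds of 6.99 and 4.57 in the first and 5.17 and 6.10 in the second. Dclre1c, which encodes the Artemis nuclease, shared 1 region with Meig1 (7.93 and 5.42) and 1 with the histone methyltransferase gene Suv39h2 (8.90 and 5.59). By chromosome, the share of genes with a region ran from 12.6% on chromosome 19 to 22.1% on chromosome 12, and the median ratio from 1.32 on chromosome 15 to 1.44 on chromosome 19.

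The promoters under the regions were rich in CpG. The regions overlapped 2906 RefSeq promoter windows of 2588 genes, with a median GC content of 64.0% and a median CpG count of 0.855 of that expected from base content. A promoter was called CpG-rich where GC was above 50% and that CpG ratio above 0.6. This held for 2553 of 2906 windows (87.9%, 95% interval 86.6 to 89.0). It held for 84.4% of 346 windows at ratio-above-2 peaks (80.2 to 87.8) and for 78.7% of 447 windows at R848-only peaks (74.7 to 82.3). Of 12427 windows with no peak in either list, 25.5% were CpG-rich and the median CpG ratio was 0.320. Over all 20063 autosomal windows the share was 46.2%.

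**Figure D3:**
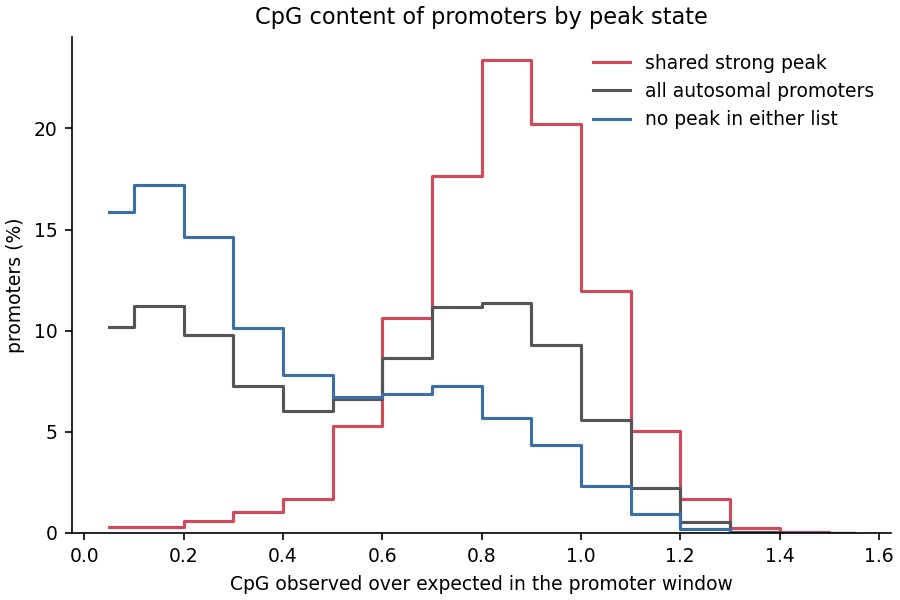
Percent of promoter windows (y axis) by CpG observed over expected (x axis, bins of 0.1) for windows at shared strong peaks (red), all autosomal windows (grey) and windows with no peak (blue). Windows at shared strong peaks form a mode near their median of 0.855, whereas those with no peak lie mostly at low values, with a median of 0.320.

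CpG-rich promoters made up more of the stronger regions. They were 82.6% of windows in the lowest of the 4 groups by R848 fold, then 86.7%, 90.8% and 90.8%. The GC box GGGCGGG was found in 54.6%, 57.5%, 62.3% and 68.1% over the same groups. The ETS motif showed no such order, at 22.5%, 25.8%, 25% and 23.2%. TATAAA, the letters of the TATA box, went the other way, at 5.69%, 4.77%, 3.50% and 3.26%.

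Motifs of broadly expressed factors were more frequent under the regions than in promoters without a peak. Letters were searched on both strands in each window. ETS letters (CCGGAAG) were in 702 of 2906 windows (24.2%), against 5.19% of windows with no peak and 11.9% of all windows. The GC box, bound by SP and KLF factors, was in 60.8%, against 22.8% and 34.5%. The CCAAT box (AGCCAAT), bound by NF-Y, was in 18.1%, against 6.28% and 9.16%. NRF1 letters (GCATGCGC) were in 8.22%, against 1.63% and 3.55%, and YY1 letters (AAGATGGCG) in 3.89%, against 0.644% and 1.83%. CREB/ATF letters (TGACGTCA) were in 4.85%, the E-box TCACGTG in 8.50% and Ronin/ZNF143 letters (CTACAATTC) in 0.998%, against 2.30%, 4.36% and 0.513% of all windows. At least 2 of these 8 motifs were in 38.2% of the windows at shared strong peaks, against 5.81% with no peak and 15.1% of all.

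Several of these motifs hold CpG, so the shares were also taken within CpG-rich windows, of which 2553 were at shared strong peaks and 3163 had no peak. There ETS letters were in 25.3% (95% interval 23.6 to 27.0) against 11.4% (10.3 to 12.5), and the CCAAT box in 17.3% (15.9 to 18.8) against 5.88% (5.11 to 6.76). NRF1 letters were in 8.70% against 4.33%, YY1 letters in 4.15% against 1.71% and CREB/ATF letters in 5.25% against 2.18%. The GC box stood at 64.8% (62.9 to 66.6) against 55.4% (53.7 to 57.1). The criterion sets only a lower bound on GC and CpG content, and the remaining difference in base content between these windows was not tested. Neighbouring windows can belong to 1 gene, so windows are not independent.

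Motifs of macrophage and inflammatory factors were not more frequent under the regions than in all promoters by any such margin. The PU.1 letters GAGGAAGT were in 3.03% of windows at shared strong peaks, 3.15% with no peak and 3.18% of all, though in CpG-rich windows alone the share was 2.90% (2.32 to 3.62) against 1.74% (1.34 to 2.26) with no peak. NF-kB letters (GGGNNTTTC) were in 4.47%, against 4.14% and 4.26%. AP-1 letters (TGANTCA) were in 3.65%, against 8.86% and 7.06%, and ISRE letters (GAAANNGAA), bound by interferon regulatory factors, in 5.37%, against 9.21% and 8.07%. C/EBP letters (TTGCNNCAA) were in 1.41%, against 2.08% and 1.76%, and TATAAA was in 4.27%, against 17.2% and 12.7%. Within CpG-rich windows AP-1 letters were in 3.13% and 3.51% with no peak, and NF-kB letters in 3.92% and 3.48%. TTGCNNCAA was there in 1.25% against 0.854%, the other way from all windows. TATAAA was in 3.56% against 5.15%, a smaller difference than over all windows.

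**Figure D4:**
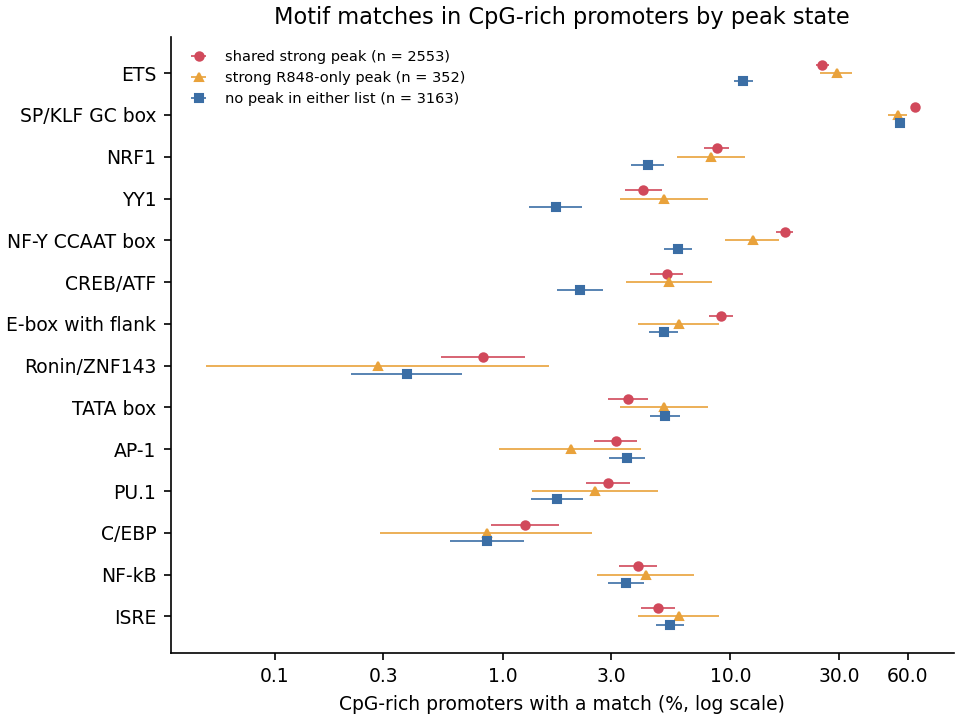
Percent of CpG-rich promoter windows with a motif match (x axis, log scale) for 14 motifs (y axis), at shared strong peaks (circles), R848-only strong peaks (triangles) and no peak in either list (squares), with 95% Wilson intervals for counting error as bars. ETS stands at 25.3%, 29.3% and 11.4% in that order, and NF-kB at 3.92%, 4.26% and 3.48%. The row named C/EBP is the letters TTGCNNCAA.

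Against the R848-only peaks the motif content was close for most motifs. ETS letters were in 26.4% of R848-only windows (95% interval 22.5 to 30.7) and 26.6% of ratio-above-2 windows, against 24.2% (22.6 to 25.7) at shared strong peaks. The GC box was rarer in both, at 49.7% (45.1 to 54.3) and 54.0% (48.8 to 59.2), against 60.8% (59.0 to 62.5). The CCAAT box was in 12.3% of R848-only windows (9.58 to 15.7), against 18.1% (16.7 to 19.5), and in 17.3% of ratio-above-2 windows. Over all windows the intervals of the GC box and the CCAAT box did not overlap between shared and R848-only peaks. Those of the other motifs did, ETS and the E-box among them, which does not show that they are alike. The E-box was in 5.15% of R848-only windows (3.45 to 7.60), against 8.50% (7.54 to 9.57). Within CpG-rich windows the CCAAT intervals did overlap, at 12.5% (9.44 to 16.4) against 17.3% (15.9 to 18.8). The GC box stood there at 54.5% (49.3 to 59.7) against 64.8% (62.9 to 66.6). R848-only peaks also had a lower median R848 fold, 6.21 against 7.24, and the groups were not matched for strength.

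Matches of some motifs lay at similar places relative to the start here and in all windows. CCAAT boxes had a median position 84 bp upstream, with 55.7% of 621 matches within 100 bp upstream and 3.38% downstream. In all windows the median was 76 bp upstream, with 58.2% within 100 bp upstream. YY1 letters had a median position 9 bp downstream, with 55.9% of 118 matches downstream and 72.9% on the gene's own strand. In all windows YY1 stood at 6.5 bp downstream, with 74.5% on the gene's strand, a placement close to that under the shared strong peaks. ETS matches had a median 55 bp upstream, against 38 bp in all windows, with 49.0% on the gene's strand. TTGCNNCAA, PU.1 and NF-kB matches were within 100 bp upstream in 32.7%, 33.7% and 36.6% of cases. The median ratio of folds, which the rule holds below 2, was 1.41 in 568 regions with ETS letters and 1.37 in 1683 without, and 1.36 in 1462 regions with a GC box and 1.42 in 789 without. Over the 14 motifs it ran from 1.32 with the E-box to 1.44 with ISRE letters. Since the ratio chose the regions, these medians say nothing of whether motifs differ in response.

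Several lists of basic cell machinery had a shared strong peak at a larger share of their genes than the 16.4% of all genes. How strongly the genes are expressed in these cells was not measured. Of all 20665 autosomal protein-coding genes, 595 had an R848-only strong peak, 416 a ratio above 2 and 11079 no gene-end peak. These counts are the base for such counts in the lists below. Among translation initiation and elongation factors, 22 of 43 genes had a region (51.2%, 95% interval 36.8 to 65.4), with a median R848 fold of 7.84, an untreated fold of 6.84 and a ratio of 1.18. Eif3f had folds of 13.8 and 8.19, and Etf1, the release factor gene that ends translation, had 10.9 and 7.11. Eif4b and Eif4a1, whose products unwind mRNA for initiation, had 10.3 and 9.15, and 10.1 and 8.82. A further 3 genes had an R848-only strong peak and 4 a ratio above 2. Among aminoacyl-tRNA synthetase genes, 10 of 22 had a region (45.5%), with ratios from 1.11 to 1.47. Tars, the threonine enzyme, had folds of 13.0 and 9.80.

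Cytosolic ribosomal protein genes had a region in 30 of 79 cases (38.0%, 28.1 to 49.0), with 9 more carrying an R848-only strong peak and 9 no gene-end peak. Rpl15 had folds of 15.2 and 8.40, Rps29 of 12.1 and 11.9 and Rpl41 of 11.1 and 5.59. Rps29 was thus nearly level between libraries, while Rpl41 stood just inside the limit at 1.98. Ribosomal protein genes have many processed pseudogenes, and reads from these copies could be misplaced. Spliceosome genes had a region in 22 of 54 cases (40.7%). Hnrnpc, an RNA-binding protein gene, had folds of 12.1 and 8.54, and Snrnp70, of the U1 particle, had 10.6 and 6.07. Srsf2, a splicing regulator gene, had 9.22 and 6.37.

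Proteasome genes had a region in 14 of 39 cases (35.9%) and chromatin regulators in 21 of 61 (34.4%). Psma2 and Adrm1, a core subunit and a ubiquitin receptor of the proteasome, had folds of 11.8 and 8.82, and 11.3 and 7.01. Psmc4 had 9.31 and 6.54, and Psmc6 had 9.18 and 9.13. Smarca5, the ISWI remodelling ATPase gene, had 11.5 and 11.2, and Kdm4b, a histone demethylase gene, had 10.9 and 9.65. Asxl1 had 9.63 and 6.57, and Kdm3a, another demethylase gene, had 8.93 and 7.48. RNA polymerase II, general factor and Mediator genes had a region in 21 of 70 cases (30%). Ccnt2, the cyclin of the elongation kinase P-TEFb, had folds of 14.5 and 9.15, Med26 of 11.6 and 9.15, Med19 of 10 and 8.13, and Ccnt1 of 9.79 and 6.54.

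Lists with shares nearer the base rate were the respiratory chain (20 of 74, 27.0%, 18.2 to 38.1), glycolysis (5 of 20, 25%), the cell cycle (10 of 40, 25%) and lysosome and V-ATPase genes (10 of 48, 20.8%, 11.7 to 34.3). The intervals of the last 3 included 16.4%. Ndufb5 of complex I had folds of 14.2 and 11.1, from a region shared with Mrpl47, and Cycs, the cytochrome c gene, had 10.9 and 6.10. Pgam1, of glycolysis, had 9.06 and 10. Ccne1, the cyclin E gene, had 10.7 and 6.19, and Cdk4 had 8.28 and 10.2. Npc2, whose product moves cholesterol out of lysosomes, had 10.1 and 6.10.

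Cholesterol synthesis genes had the highest share of the 23 lists and the receptor group. A region was found for 13 of 24 genes (54.2%, 35.1 to 72.1), with a median fold of 9.15 in R848 and 6.60 in untreated cells. Srebf2, the master regulator of the pathway, had folds of 12.03 and 9.15. Hmgcs1, an early synthase of the pathway, had 11.2 and 7.62. Msmo1, a sterol oxidase, had 10.8 and 6.73. A further 4 genes had a ratio above 2 and 1 an R848-only peak, and 3 had no gene-end peak.

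Genes that respond early to Toll-like receptors also often had a region. Of 35 primary response genes, 16 did (45.7%, 30.5 to 61.8), while 2 had an R848-only strong peak, none a ratio above 2 and 5 no gene-end peak. Jun, an AP-1 subunit gene, had folds of 9.30 in R848 and 6.54 in untreated cells. Rhob, a small GTPase gene, had 8.86 and 5.14, Btg2, an antiproliferative gene, had 8.50 and 5.08, and Klf2, a Krüppel-like factor gene, had 8.29 and 6.20. Gadd45b had folds of 4.82 and 8.19, with 20 and 18 tags and a scaled tag ratio of 0.791 (95% interval 0.398 to 1.59). Klf10 had folds of 4.89 and 5.28 but 26 and 14 tags, so its scaled tag ratio of 1.32 (0.666 to 2.74) lay on the other side of 1 from its fold ratio. By scaled tags 15 of the 16 regions lay above 1, while 14.7% of all 2826 regions lay under 1. Of the 16 intervals only that of Jun (1.01 to 3.18) excluded 1. Gadd45b and Klf10 were named after their values were seen.

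The NF-kB pathway and its feedback inhibitors had a region in 9 of 33 genes (27.3%, 15.1 to 44.2), and 5 more had a ratio above 2. Map3k14, the kinase NIK of the noncanonical pathway, had folds of 11.8 and 6.80. Cyld, a deubiquitinase that restrains the pathway, had 11.1 and 9.65, the adaptor gene Traf2 had 8.08 and 4.21 and the ubiquitin ligase gene Birc2 had 7.72 and 4.06. Nfkbia, the gene of the inhibitor IkBα, had folds of 4.64 and 6.19 but 21 and 12 tags. Its scaled tag ratio was 1.25 (0.586 to 2.78), so the 2 measures pointed in opposite directions. The R848 and untreated summits there were 697 bp apart, so both measures compared different positions. Nfkbia was also named after its values were seen.

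Cytokine and interferon lists had shares below 16.4%, though for interferon genes the interval included that base rate. Of 46 cytokine and chemokine genes 2 had a region (4.35%, 1.20 to 14.5), the neighbours Ccl3 and Ccl4, which encode macrophage inflammatory chemokines and shared it, with folds of 6.94 and 5.05. A further 6 had an R848-only strong peak, and 21 had no gene-end peak, against 595 and 11079 of all 20665 genes. Of 45 interferon-response genes 3 had a region (6.67%, 2.29 to 17.9). Ifnar1, the type I interferon receptor subunit gene, had folds of 9.52 and 5.59, Oasl1 had 8.61 and 8.13, and Stat2, of the interferon signalling complex, had 8.17 and 4.57. The pattern of the lists, with early response genes above and cytokine genes below the base rate, was seen after the lists had been chosen with results of these data known.

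**Figure D5:**
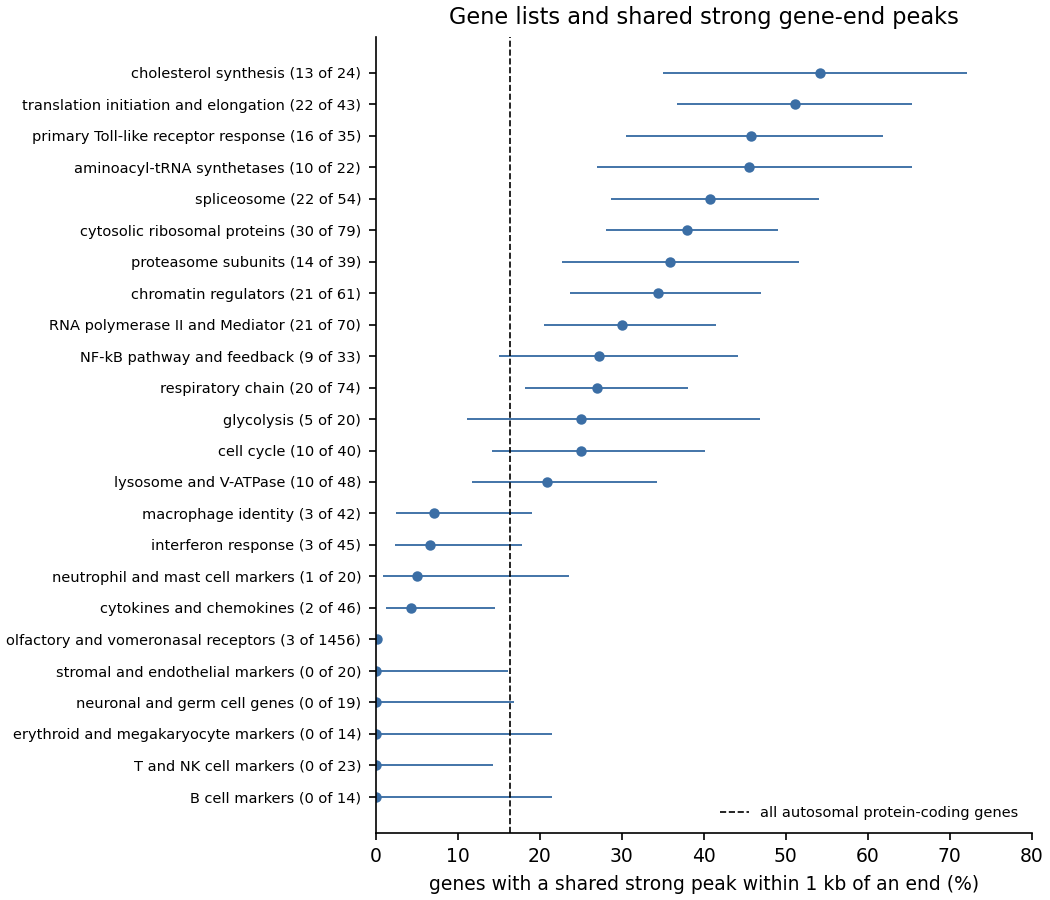
Percent of the autosomal genes of each list with a shared strong peak within 1 kb of an end (x axis), with 95% Wilson intervals for counting error as bars and counts beside each name (y axis); the dashed line is the share of all autosomal protein-coding genes. Cholesterol synthesis stands highest at 54.2% and cytokines and chemokines at 4.35%, against 16.4% overall.

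Of 42 macrophage identity genes 3 had a region (7.14%, 2.46 to 19.0), an interval that includes the base rate of 16.4%. Lyz2, the lysozyme gene, had folds of 7.04 and 7.21, and Cebpa, a myeloid transcription factor gene, had 5.73 and 6.72. Over 5 marker lists of other cells (lymphoid B, T and NK, granulocytic and mast, red cell and platelet lineage, stroma and vessel), 1 of 91 autosomal genes had a region and 68 had no gene-end peak. That gene was Mmp8, a neutrophil collagenase, with 12 and 7 tags. None of 19 neuronal and germ cell genes had a region.

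Receptor genes of smell and pheromone sensing, most of which are silent outside sensory neurons, were also followed. Of 1456 olfactory and vomeronasal receptor genes 3 had a region (0.206%, 0.0701 to 0.604). Vmn1r4 lay beside Nt5c3, whose end was within 1 kb of the same region (9.04 and 6.60). Vmn2r29 had folds of 7.62 and 4.96 (chr7:7277955-7278528), and Olfr111 had 5.51 and 4.57 (chr17:37538399-37538676). A high local background, over 3 times the genome-wide level in either list, was found in 59 of all 2826 regions (2.09%). Those 59 had a median ratio of 1.15, and leaving them out kept the median ratio of the rest at 1.37.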

How the data were processed

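ATAC-seq of wild-type bone marrow-derived macrophages was analysed from the 2 deposited peak lists, 1 untreated and 1 R848. The lists were made with bcl2fastq 2.19, Bowtie2 2.2.6 and MACS2 2.2.7.1 on mm10, per the submitters' processing notes. Read totals, read filters, Tn5 shift and caller settings are not given in the sources used here, and nothing mentions pooling. The deposited values are the fold (a ratio of summit pileup to background, each plus 1), −log10 p and −log10 q of each summit within its library. The deposited score is 10 times the −log10 p and was not used.

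Tags and background were solved from the identities fold = (tags + 1)/(background + 1) and p = Poisson tail, to within 0.1%. Intervals are 95% Wilson intervals for shares and exact binomial ones for tag ratios. Overlap needed 1 bp, and the untreated peak with the largest fold was used. Gene ends came from the RefSeq table, strands and promoters from the GRCm38.p6 promoter table, which held a strand for 79.6% of autosomal protein-coding genes. Exon and intron positions were not used here. Work was done in Python 3.11.15 with scipy 1.17.1, numpy 2.4.6, matplotlib 3.10.9 and pandas 2.3.3, and functions were tested on simulated data.

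Members, gene lists and motifs were chosen with earlier results of these data known. Genes were named by rule: the 10 largest R848 folds, the 5 genes with most regions (ties by coordinate), 5 each nearest the ratio limit on either side, at the lowest ratio and nearest 1, up to 4 by fold in each list, and the strongest promoter of each motif, of which 8 are printed. Some genes the rule names are not reported here. With 1 library a group, no test was run. The alternatives were other thresholds, overlaps, distances, ratio limits and chromosomes, and 2 chosen after seeing the data.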

Additional observations from a re-analysis of the deposited data

How the results depend on the processing

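No paired analysis was possible because each group had 1 library. Of 13 alternatives, 2 were chosen after seeing the data: leaving out regions with raised local background, and asking strength of the untreated list alone. Each was set against 8 results: the number of regions (2826), their share of strong gene-end peaks (76.6%), the median fold ratio (1.37), the shares with summits within 100 bp (74.2%) and at gene starts (83.9%), the shares of promoters that were CpG-rich (87.9%) and had ETS letters (24.2%), and the genes covered (3396). An R848 −log10 q of at least 10 gave 1535 regions, 80.2%, a ratio of 1.42, summits 78.7%, CpG-rich 90.2% and 1874 genes. A −log10 q of at least 5 in both lists gave 1357 regions, 36.8%, 1.20, summits 80.8%, starts 85.8%, CpG-rich 90.1%, ETS 22.3% and 1673 genes. The same threshold in the untreated list alone gave 1459 regions, 1.16, summits 79.1%, CpG-rich 89.7%, ETS 22.5% and 1781 genes, and has no share of strong R848 peaks. Both of the last 2 ask more of the untreated list by construction. Asking for summits within 200 bp gave a share of 72.0% and summits 79.2%, a distance of 2 kb gave starts 81.9%, and dividing the ratio by its median over all shared peaks gave a share of 80.2% and a ratio of 1.29. A limit on the scaled tag ratio gave a share of 70.4%, and 2556 of the 2826 regions (90.4%) also met it. In no alternative did the median ratio fall below 1.16. The lack of replicates and the median of 11 untreated tags limit every statement on a single region.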
